A study of Arabidopsis thaliana with 12 samples.

Results

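Whole Arabidopsis seedlings of the cultivar Col-0 exposed to oligomycin for 4 h were compared with seedlings given only its solvent, ethanol, for the same time. The comparison used the 6 arrays that the labels place at 4 h, 3 with 10 µM oligomycin and 3 with an equal volume of ethanol, out of 12 arrays in the series. The other 6 arrays carry the same pair of treatments at 1 h and entered only the shared estimate of spread and the comparison of the 4 h difference with the 1 h difference. All groups were raised the same way. About 100 seeds were grown in 80 ml of liquid Murashige and Skoog medium with 1% sucrose in a 250 ml flask, under a day of 16 h light and 8 h dark until day 9, then kept in the dark for 24 h before and also during the treatment. The labels call the 3 arrays of a group biological replicates and say nothing of separate cultures, harvest days or scans. The p-values therefore measure the spread between these samples, which may in part be technical. Whole seedlings were sampled, so fewer cells of a type and less RNA per cell cannot be told apart.

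Oligomycin binds the membrane part of the mitochondrial ATP synthase and stops the flow of protons that drives ATP production. In plant cells this slows the respiratory chain, raises the membrane potential of mitochondria and takes away the main source of ATP in the dark. Nuclear genes respond to disturbed mitochondria through what is called retrograde signalling, best known in Arabidopsis for alternative oxidase and other proteins of stress respiration. Those well known targets and the longest pathway lists are passed over here in favour of the remaining genes.

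The array holds 22810 probe sets, each a group of short oligonucleotides that reports 1 transcript or a few similar ones. Of these, 64 are control probe sets, and 22746 were tested. The values are intensities on a linear scale, and changes are differences of log2(intensity + 16), oligomycin minus ethanol, which understates the change of dim transcripts. A probe set was called when its adjusted p from limma over all 22746 was under 0.05. The gene tables used here gave 13513 probe sets a single gene, 503 several genes and 8730 no name, and the brightest probe set stood for each of the 13355 genes named. Of these genes, 11798 carry only a locus identifier such as AT2G20720 and 1557 carry another symbol. For genes known only by their locus, the tables give no name and no role, and none is given here.

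At 4 h, 8345 of the 22746 probe sets were called (36.7%), of which 2594 were higher with oligomycin (11.4%) and 5751 lower (25.3%). The rises were fewer and steeper, and the falls more numerous and shallower. Intensity has a floor, so a fall from a dim level is bounded on this scale, while a rise is not. What part this had in the difference was not tested. The median rise was 0.84 and the median fall −0.56 on the log2 scale, while the median over all probe sets was −0.10. Among probe sets past a log2 change of 1 the balance turned, with 1082 rises (4.76%) and 605 falls (2.66%). Risen probe sets were dimmer in ethanol than fallen ones, with a median of 60.9 that became 153 with oligomycin. Of the rises, 23.3% lay below 20 in ethanol. Fallen probe sets had a median of 94.6 in ethanol and 54.8 with oligomycin, and 6.05% of them lay below 20 in ethanol.

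The tilt towards falls rested partly on how the arrays were scaled. Falls made up 68.9% of the calls on the values as deposited, 60.7% after quantile normalization, 57.2% when arrays were scaled to the hybridisation controls and 47.1% when each array was centred on its median. The median over all probe sets moved with it, from −0.10 as deposited to −0.05, −0.03 and 0.06. Changes near 0 therefore have no settled direction, and changes of lists are best read against these medians.

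**Figure D1:**
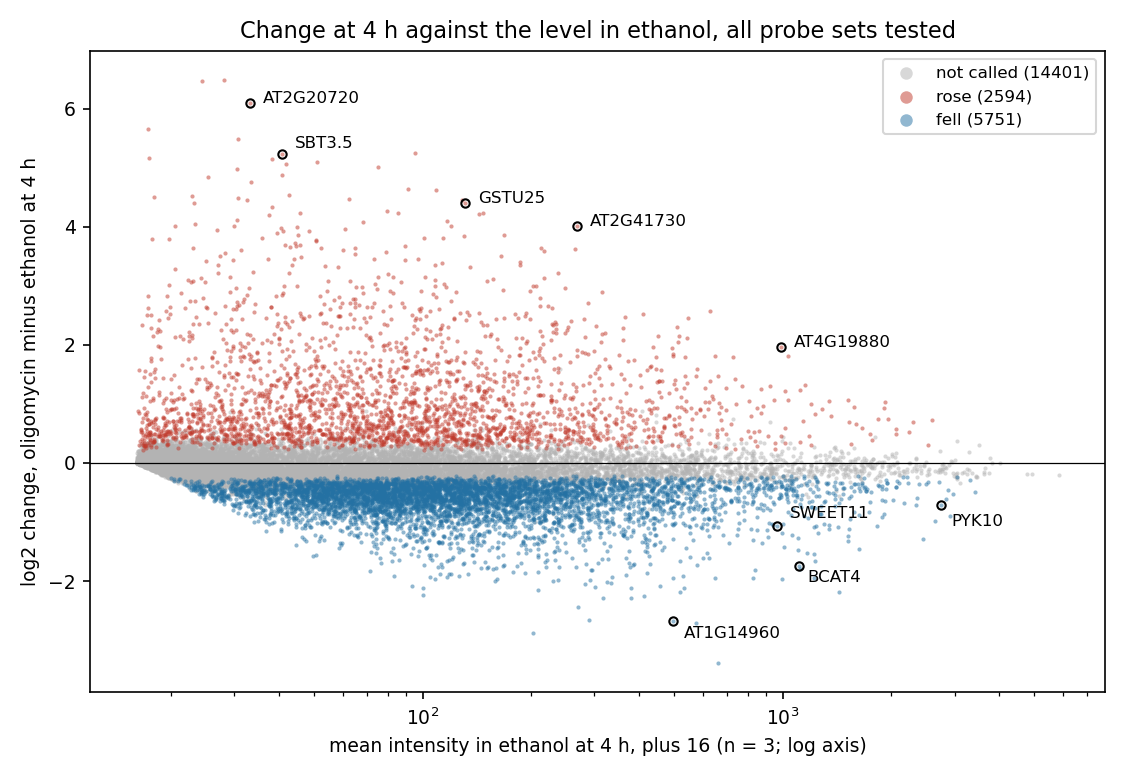
Each point is a probe set, placed by its mean intensity in the 3 ethanol arrays at 4 h (log axis) and by its change at 4 h on the log2(intensity + 16) scale, oligomycin minus ethanol. The 2594 called rises reach furthest among dim probe sets, and the 5751 called falls lie in a shallow band across all levels.

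The changes were also unequal in how much signal they moved. Summed on the linear scale, the rises added 529113 intensity units, and among the falls the signal fell by 407444. The 100 largest rises held 31.2% of the added signal, and the 100 largest falls held 16.0% of the lost signal. Among the 485 probe sets above 1000 in ethanol, 31 rose and 166 fell, with a median change of −0.17. In 23 probe sets the mean went from under 100 in ethanol to over 1000 with oligomycin, and in 0 did it go the other way.

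To describe the named genes, 69 lists of families and processes with 813 measured genes were drawn up, and 366 of these genes were called (119 higher and 247 lower), beside 32.9% of all 13355 genes. Over all genes 10.1% were called higher and 22.7% lower. Of the 553 genes that rose by at least 1 on the log2 scale, 488 (88.2%) lie in none of these lists, and of the 273 that fell by at least 1, 234 (85.7%) lie in none. These shares are below the 93.9% of all genes that lie outside the lists. A rise of at least 1 was seen in 65 list genes (8.0%) beside 4.14% of all genes, and a fall of at least 1 in 39 (4.8%) beside 2.04%. The lists were redrawn after values were seen, which can favour genes that changed, so the shares for list genes only describe the lists. Only a locus name is given for 466 of the 553 rises (84.3%) and 224 of the 273 falls (82.1%), beside 88.3% of all genes.

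The largest rise among genes outside the lists was that of AT2G20720. Its intensity was 19.8, 27.8 and 3.8 on the 3 ethanol arrays and 2362, 1937 and 2158 on the 3 oligomycin arrays. Every oligomycin array was far above every ethanol array, and the change was 6.10 (SE 0.22, adjusted p = 1.63e-09 from limma). Groups did not overlap for 257 of the 259 named genes called, beside 46.8% of all tested probe sets. Most of these genes were named for the size of their changes, so lack of overlap only describes them. AT3G54520 was close to 0 in ethanol, at 1.9, 0.2 and 1.7, and reached 718, 934 and 926 with oligomycin. Its groups did not overlap, with a change of 5.66 (SE 0.17, adjusted p = 4.99e-10). AT5G42830, with the smallest SE of the 12, was at 52.9, 65.1 and 59.3 in ethanol and 2294, 2335 and 2568 with oligomycin. The oligomycin arrays lay above all ethanol arrays, and the change was 5.01 (SE 0.10, adjusted p = 4.77e-11).

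The remaining 9 of the 12 largest such rises were AT4G28460, AT1G26380, AT4G39670, AT1G74870, AT2G23270, AT5G43450, AT1G26390, AT1G57630 and AT2G04070. Their changes ran from 5.49 down to 4.50, and in each the lowest oligomycin array was above the highest ethanol array. AT4G28460 was at 13.8, 22.7 and 7.6 in ethanol and 1423, 1163 and 1441 with oligomycin. AT1G26380 was at 34.2, 17.6 and 25 in ethanol and 1342, 1343 and 1407 with oligomycin. Both went from the dim end of the array to a bright level in all 3 oligomycin arrays. AT1G57630 was not called at 1 h, with a change there of −0.03 (adjusted p = 0.943). At 4 h it went from 1.8, 1.4 and 2.5 to 395, 325 and 458.

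The largest rises in intensity units named partly other genes, all of which ended bright. AT2G41730 had intensities of 229, 371 and 157 in ethanol and 4354, 4074 and 3877 with oligomycin. All oligomycin arrays were high, the groups did not overlap, and the change was 4.01 (SE 0.25, adjusted p = 1.16e-07). Its probe set is of the kind that can bind several transcripts, so the reading may be a sum. Its change at 1 h was 3.94, and the difference between the times was 0.08 (adjusted p = 0.922). AT4G19880 was bright before the treatment, at 1063, 985 and 879 in ethanol, and stood at 4217, 3506 and 3831 with oligomycin. Its change on the log2 scale was moderate at 1.96 (SE 0.13, adjusted p = 1.4e-07), and the groups did not overlap. AT1G05060 and AT5G40690 were also among these genes, with changes of 4.21 and 3.86.

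The falls outside the lists were smaller in size. AT1G14960 led them, at 520.5, 452 and 467 in ethanol and 73.9, 40 and 76.4 with oligomycin. All 3 oligomycin arrays were low, and the change was −2.68 (SE 0.18, adjusted p = 1.61e-07). AT4G22610 was at 204, 182 and 192 in ethanol and 37.9, 29.1 and 26.2 with oligomycin, and AT5G46230 at 92.2, 80.3 and 80.5 in ethanol and 11.7, 5.5 and 4.9 with oligomycin. Neither gene's groups overlapped, and the changes were −2.15 and −2.11. The other 9 of the 12 largest such falls were AT3G54400, AT1G29660, AT2G41800, AT1G20070, DRT100, AT5G20700, AT2G41810, AT1G14120 and AT3G20370, between −2.11 and −1.91. AT2G41810 had the largest SE of the 12 and was at 98.4, 109 and 58.3 in ethanol and 15.2, 10.3 and 7.6 with oligomycin, with an SE of 0.40.

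Several of the brightest transcripts of the seedlings lost signal. The largest falls in intensity units and the steepest falls among transcripts above 1000 included PYK10, PRXR1, APA1, COR47 and BCAT4. PYK10, a beta-glucosidase stored in root endoplasmic reticulum bodies, was at 2624, 2711 and 2857 in ethanol and 1604, 1686 and 1664 with oligomycin. All oligomycin arrays were lower, and the change was −0.72 (SE 0.09, adjusted p = 3.92e-05). APA1, a vacuolar aspartic protease, was at 2264, 2172 and 2032 in ethanol and 1484, 1300.3 and 1252 with oligomycin, and its groups did not overlap (change −0.68, adjusted p = 6.95e-05). The peroxidase PRXR1 stood at 3004, 2831 and 2636 in ethanol and 1997, 1781 and 1743 with oligomycin, again without overlap (change −0.61, adjusted p = 0.000163). COR47, a dehydrin induced by cold and drought, was at 1307, 1184 and 1227 in ethanol and 555, 508 and 539 with oligomycin. Every oligomycin array was low, with a change of −1.19 (SE 0.12, adjusted p = 8.31e-06). AT4G30170, after BCAT4 the steepest fall of a named gene above 1000, went from 1319.9, 1225 and 1098 to 414, 332 and 371, a change of −1.67 without overlap.

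Families of named genes were then set side by side. Of the 65 lists with at least 3 measured genes, 40 held called genes in both directions, 23 held falls only and 2 held rises only. Their medians lay on both sides of that of all probe sets, with 32 of 65 below it. With 10.1% of all genes higher and 22.7% lower, a list of many genes can hold both directions without standing apart from the rest, and counts of both are given below as a description.

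**Figure D2:**
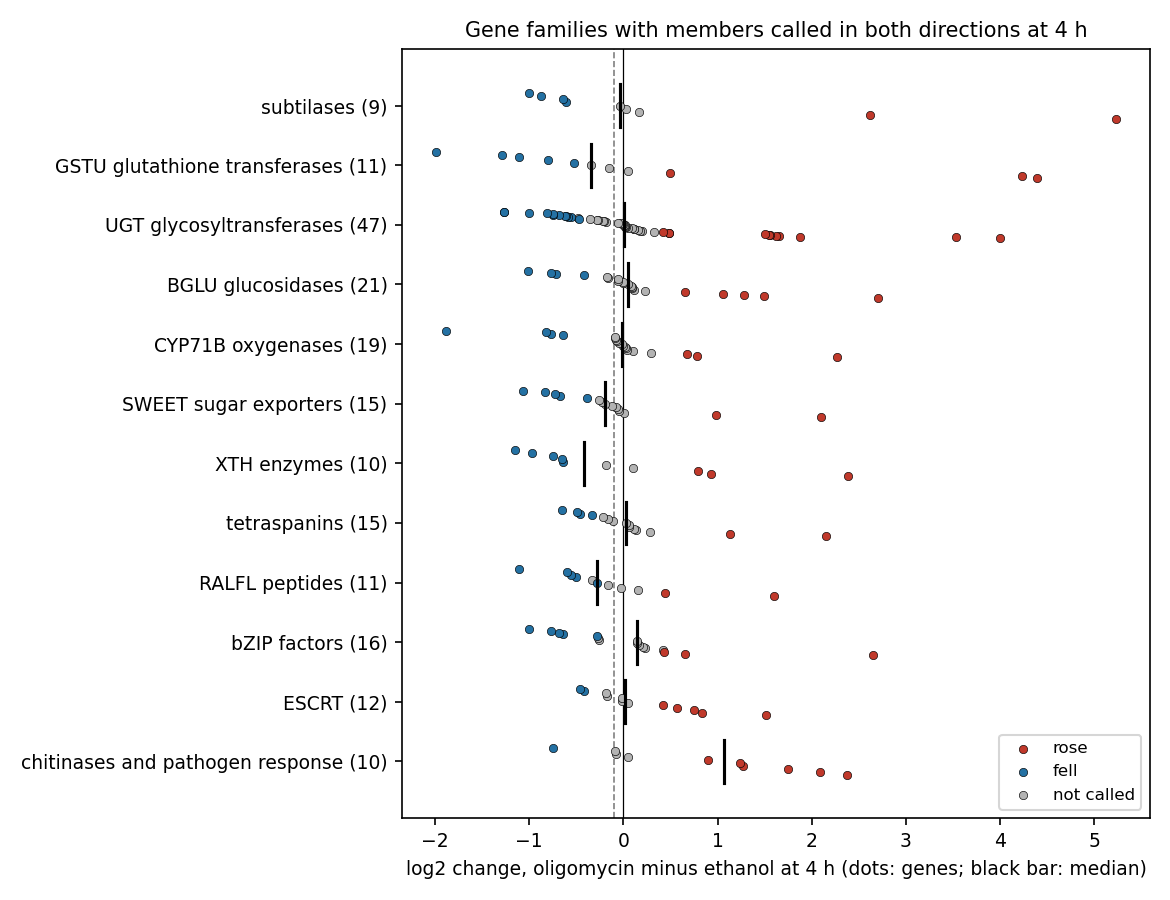
Each point is a gene of a family with called members in both directions, placed by its log2 change at 4 h, and the dashed line marks the median of all probe sets (−0.10). Within several families the points spread from clear falls to rises of more than 2.

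Enzymes that attach glutathione or sugars to small molecules changed in both directions. Glutathione transferases of the tau class, which detoxify reactive compounds, had 11 measured genes, of which 3 rose and 5 fell, with a median change of −0.34. GSTU25 was at 128, 99.2 and 119 in ethanol and 2899, 2634 and 2674 with oligomycin. GSTU26, its neighbour on the chromosome, was at 290.0, 186 and 189.5 in ethanol and 42, 45 and 41.5 with oligomycin. The first was high on all oligomycin arrays and the other low on all of them, with changes of 4.39 (SE 0.13, adjusted p = 4.91e-10) and −1.99 (SE 0.15, adjusted p = 6.7e-07). GSTU22 rose by 4.23, and GSTU27 fell by 1.29. Both probe sets are of the type designed for 1 transcript, though similar genes of such a family can still bind each other's probes.

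The UDP-glycosyltransferases, which add sugars to hormones, phenolics and foreign compounds, had 47 measured genes, with 11 higher, 12 lower and a median of 0.00. UGT73B4 was at 28.5, 32.7 and 24.8 in ethanol and 714, 659 and 712 with oligomycin. It was high in all oligomycin arrays, with a change of 4.00 (SE 0.14, adjusted p = 9.12e-10), and UGT73B5 and UGT73C7 also rose, by 3.54 and 1.87. UGT71B1 went the other way, from 106, 100.3 and 99.5 to 40.5, 33.3 and 26, without overlap (change −1.27, adjusted p = 2.98e-06). Among the 21 beta-glucosidases named BGLU, which release such sugars again, 5 rose and 4 fell. BGLU45 was at 60.3, 34.6 and 51.9 in ethanol and 413, 399 and 394 with oligomycin. Its groups were well apart (change 2.71), BGLU46 and BGLU27 rose by 1.49 and 1.28, and BGLU40 fell by 1.01.

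Cytochromes P450 of the CYP71B group, oxygenases of specialised metabolism, had 3 rises and 4 falls among 19 genes. CYP71B6 was at 214, 202 and 239.8 in ethanol and 1192, 1040.2 and 1119 with oligomycin, and CYP71B26 at 126, 94.2 and 92.2 and 16.7, 18.2 and 14. The first was high and the second low on every oligomycin array, with changes of 2.27 and −1.89 (adjusted p = 1.93e-07 and 4.9e-07). Genes that make or store the alcohols from which lignin is built had 6 rises and 4 falls among 14. CCOAMT, named as an O-methyltransferase of that pathway, was at 19.2, 19.8 and 14.2 in ethanol and 363, 283 and 266 with oligomycin. It was high in all oligomycin arrays (change 3.24, SE 0.15, adjusted p = 9.59e-09), and CYP84A4, which makes arabidopyrones from related compounds, rose by 2.88. UGT72E2, which glucosylates the alcohols, was lower in all of them, at 361, 358 and 341 in ethanol and 142, 142 and 129.8 with oligomycin (change −1.26).

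Sugar exporters of the SWEET family had 15 measured genes, 2 higher and 5 lower, with a median of −0.19. SWEET11, which passes sucrose towards the phloem in leaves, was at 1060.2, 903 and 890.0 in ethanol and 440.1, 469 and 421 with oligomycin. SWEET8, known from pollen, was at 14.1, 5.1 and 16.4 in ethanol and 114, 82 and 110.4 with oligomycin. The oligomycin arrays were all low for SWEET11 and all high for SWEET8, with changes of −1.07 (adjusted p = 3.42e-05) and 2.1 (adjusted p = 5.27e-07). SWEET2 rose by 0.99 and SWEET17, a vacuolar fructose carrier, fell by 0.84. The sugar carriers of the vacuolar membrane and their relatives had 0 rises and 3 falls among 6 genes, with TMT1 at −0.76 and TMT2 at −0.55. CHX20, a cation exchanger studied in guard cells, was at 30.2, 23.3 and 28.6 in ethanol and 162, 226 and 259 with oligomycin. All its oligomycin arrays were high (change 2.40), while it showed a change of 0.01 at 1 h (adjusted p = 0.986).

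Proteases parted in the same way. Subtilases, secreted serine proteases, had 2 rises and 4 falls among 9 genes. SBT3.5 was at 27.1, 29.4 and 17.5 in ethanol and 1405, 1536 and 1556 with oligomycin. It was high on all oligomycin arrays, with a change of 5.23 (SE 0.14, adjusted p = 1.88e-10), against 0.48 at 1 h (adjusted p = 0.0951). SBT3.3, known from defence priming, went from 1.4, 0.9 and 1.3 to 86.3, 81.1 and 104 without overlap (change 2.62). ATSBT5.2 was lower, at 304, 342 and 454 in ethanol and 142, 196 and 184 with oligomycin (change −1.0), and ARA12, a subtilase of seed coat mucilage, fell by 0.88. Among the 29 serine carboxypeptidase-like genes, 1 rose and 9 fell, with SCPL27 at −1.12 and scpl40 at −1.01. With arrays centred on their medians these counts were 4 and 7.

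**Figure D3:**
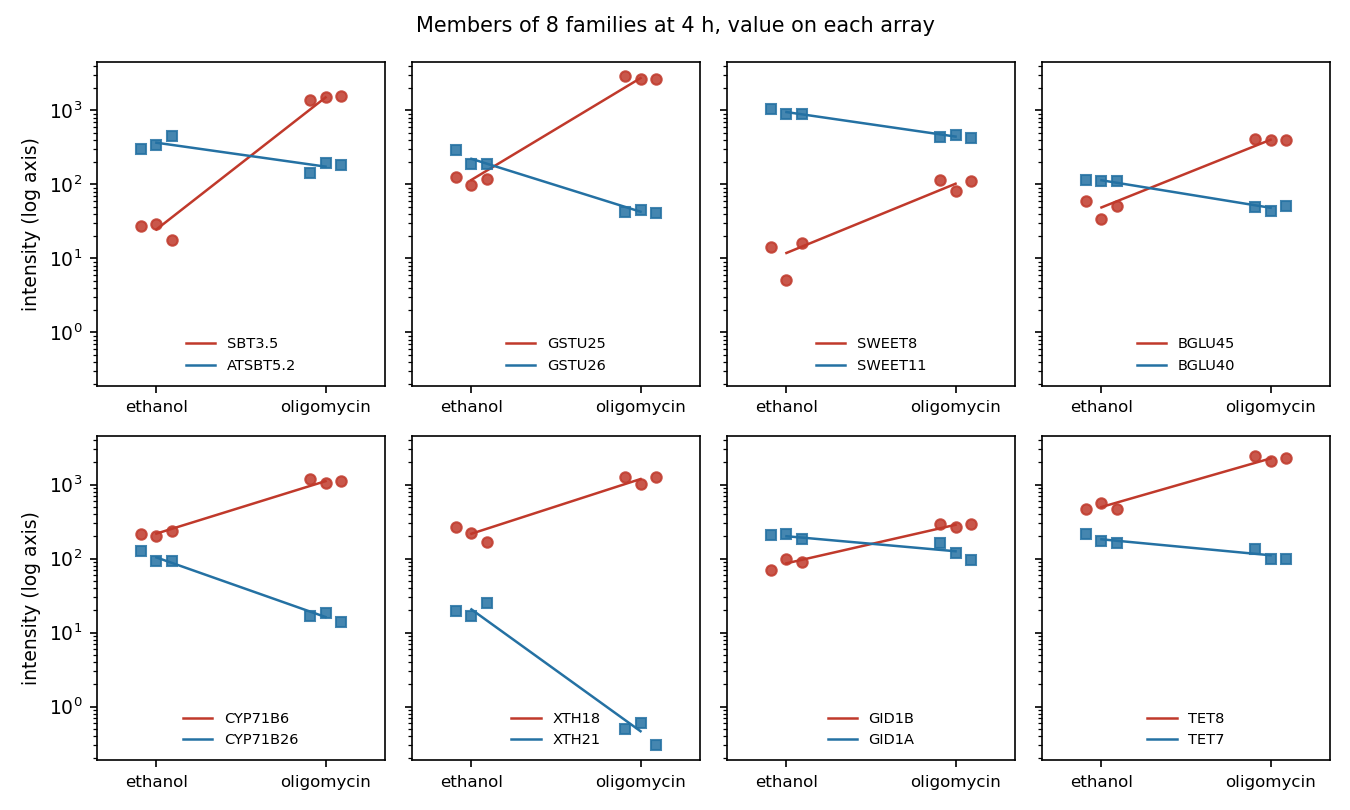
Intensities at 4 h (log axis) on each ethanol and oligomycin array for 8 pairs of related genes, with circles for the member that rose, squares for the member that fell and lines joining the group means. The pairs were chosen to hold a member that rose and a member that fell, so their opposite directions follow from the choice. Levels of different genes in a panel are not comparable because each probe set has its own response.

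Among genes of defence and signalling, some lists held more rises and others more falls. Chitinases and other genes of the response to pathogens had 6 rises and 1 fall among 10, with a median of 1.07. The chitinase ChiC went from 55.9 ± 6.03 to 290.4 ± 29.3 (mean ± SD, n = 3; change 2.09), the receptor-like kinase B120 from 25.4 ± 5.34 to 198 ± 6.94 (2.38) and BIK1, a kinase that acts next to immune receptors, from 142 ± 13.1 to 516 ± 52.8 (1.75). In all 3 genes the oligomycin arrays lay above the ethanol arrays, and PR-1-LIKE was lower, at −0.75. Of 7 WRKY transcription factors, 3 rose and 1 fell, led by WRKY6 (2.30) and the senescence factor WRKY53 (1.90). The fall, of ZAP1 (−0.41), was not called with arrays centred on their medians or scaled to hybridisation controls. Plant U-box ubiquitin ligases had 4 rises and 1 fall among 11, with PUB23 at 1.55 and PUB24 at 1.38, both known as brakes on immune responses. The fall, of MAC3A (−0.24), was not called under any of the 3 other scalings or without any of 5 single arrays (adjusted p of up to 0.142), and the rise of PUB22 (0.41) was lost without any of 5 single arrays (adjusted p of up to 0.0929). The 11 RALF-like peptides, secreted signals sensed at the cell wall, had 2 rises and 5 falls. RALFL18 was at 1.60 and RALFL24 at −1.10. With arrays centred on their medians or scaled to hybridisation controls, 3 of the falls of this family were called.

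Genes of redox repair and heme synthesis held both rises and falls. Of 28 redox repair genes 7 rose and 5 fell, with a median of −0.05. The glutaredoxin GRX480 rose by 2.07 and AER, a reductase of reactive aldehydes and ketones, by 1.52. AOR, which reduces reactive carbonyls in chloroplasts, fell by 1.07. The iron-sulphur list held 1 rise, SUFE2, and 1 fall among 4 genes, and the fall, of HCF101 (−0.30, adjusted p = 0.0447), was not called under any of the 3 other scalings, with the replicate block (adjusted p = 0.0706) or without any of 5 single arrays (adjusted p of up to 0.18). SUFE2, a sulphur transfer protein of iron-sulphur cluster assembly, was at 54, 66.8 and 71.2 in ethanol and 679, 713 and 749 with oligomycin. All oligomycin arrays were high, with a change of 3.19 (SE 0.11, adjusted p = 9.12e-10). HEMA2, a form of the enzyme that starts heme and chlorophyll synthesis and that is best known from roots, was at 55.1, 63.6 and 48.1 in ethanol and 276, 287 and 336 with oligomycin. All oligomycin arrays were high (change 2.14). It was the 1 rise of the tetrapyrrole list, beside 5 falls among 14 genes, which included HEME2 (−0.84), LIL3:1 (−0.84) and CHLI2 (−0.76).

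Enzymes that break down amino acids had 6 rises and 2 falls among 13 genes, with a median of 0.25. MGL, which splits methionine, went from 125 ± 18.4 to 458 ± 35.6 (mean ± SD, n = 3; change 1.76). MCCA, a subunit of the mitochondrial carboxylase of leucine breakdown, went from 122 ± 28.5 to 431 ± 20.8 (1.72). Both were higher on all oligomycin arrays. GAT1_2.1 had a change of 1.89 at 4 h and 2.14 at 1 h. Under scaling to hybridisation controls or centring on medians, 0 of the falls of this list were called. Storage lipid and acetate genes had 3 rises and 1 fall among 7, with the oil body lipase SDP1 at 0.96 and the dikinase PPDK at 0.98. The fall, of ACS (−0.27), was not called with arrays centred on medians or scaled to hybridisation controls, or without any of 4 single arrays (adjusted p of up to 0.0919). In the list drawn up for organelle fission, both called genes rose, out of 4 measured. BIGYIN, a membrane anchor of mitochondrial and peroxisomal division, went from 319.8 ± 11.6 to 834 ± 29.2 (change 1.34, adjusted p = 5.53e-08 from limma). The dynamin-related DL1B was at 0.64, and these data do not place it in organelle fission. The call of DL1B was lost without any of 3 single arrays, with an adjusted p of up to 0.153.

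Genes of membrane traffic changed in both directions. The ESCRT proteins, which sort membrane cargo into vesicles inside endosomes, had 5 rises and 2 falls among 12 genes. VPS60.1 went from 83.8 ± 6.42 to 271 ± 35.7 (mean ± SD, n = 3; change 1.52), with all oligomycin arrays above all ethanol arrays. VPS60.2 was at −0.46, and scaling to hybridisation controls left 0 of the falls called. SEC1B, a relative of the fusion regulator KEU, went from 26 ± 4.30 to 144 ± 17 (change 1.93), and KEU itself from 178 ± 25.2 to 294 ± 11 (0.69). Tetraspanins, membrane proteins of exosomes, had 2 rises and 4 falls among 15, a split that became 5 and 2 with arrays centred on their medians. TET8 was at 467, 560.3 and 473 in ethanol and 2406, 2097 and 2295 with oligomycin. It was high on all oligomycin arrays (change 2.15, SE 0.14, adjusted p = 2.09e-07), and TET7 was lower, at −0.65.

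In the endoplasmic reticulum a transcription factor rose and several folding proteins fell. BZIP60, a factor of the unfolded protein response, was at 213, 192 and 184 in ethanol and 1271, 1247 and 1431 with oligomycin. All oligomycin arrays were high (change 2.65, SE 0.11, adjusted p = 3.45e-09), and the gene had also risen at 1 h, by 1.77. The list of folding and of export of misfolded proteins includes BZIP60. In it 3 of 16 genes rose, BZIP60 among them, and 7 fell, with a median of −0.29. The calreticulin CRT1b went from 728 ± 66.8 to 302 ± 17 (mean ± SD, n = 3; change −1.23, adjusted p = 4.15e-07), ATERDJ3B was at −0.96 and ATERDJ2A at −0.89. Among bZIP factors, BZIP60 again included, 3 of 16 rose and 5 fell, or 5 and 4 with arrays centred on their medians. BZIP61 was at −1.01 and the zinc deficiency factor bZIP19 at −0.69.

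ER bodies, compartments that hold beta-glucosidases against herbivores, and the glucosinolates such enzymes can act on were described together. Of 7 ER body genes, 0 rose and 6 fell, with a median of −0.72. With arrays centred on medians or scaled to hybridisation controls, 4 of these falls were called. NAI2, a structural protein of these bodies, was at 1099, 753 and 834 in ethanol and 371, 384 and 333 with oligomycin. JAL33, a lectin found in complexes with PYK10, was at 1335, 1376 and 1278 in ethanol and 613, 646 and 653 with oligomycin. NAI1, the transcription factor that drives the set, was at 59.1, 56.7 and 56.1 in ethanol and 22.6, 30.1 and 24.4 with oligomycin. In all 3 genes every oligomycin array was below every ethanol array, with changes of −1.25, −1.04 and −0.82 (adjusted p = 1.01e-05, 1.76e-06 and 0.00351).

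Of 8 genes of glucosinolate synthesis and transport, 1 rose and 6 fell, with a median of −0.73. BCAT4, which starts the chain elongation of methionine, was at 1076, 1043 and 1169 in ethanol and 321, 311 and 318 with oligomycin. Its oligomycin arrays were all low and close together (change −1.74, SE 0.11, adjusted p = 9.17e-08). AOP1 was at −1.36, the transporter GTR2 at −0.93 and the regulator MYC3 at 0.61. ER bodies are most abundant in roots, and both root markers measured fell. These were PYK10, itself in the list, and AT5G17820, the latter going from 159 ± 28.6 to 112 ± 6.40 (mean ± SD, n = 3; change −0.43, adjusted p = 0.0177). The call of AT5G17820 was lost without any of 3 single arrays (adjusted p of up to 0.0816), and it was also lost with arrays centred on medians or scaled to hybridisation controls. Of the green tissue markers, RCA, the activase of Rubisco, was measured, at 1072 ± 109 to 897 ± 35.8 (change −0.25, adjusted p = 0.0917). Whether the share of root RNA had a part in these falls was not tested.

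**Figure D4:**
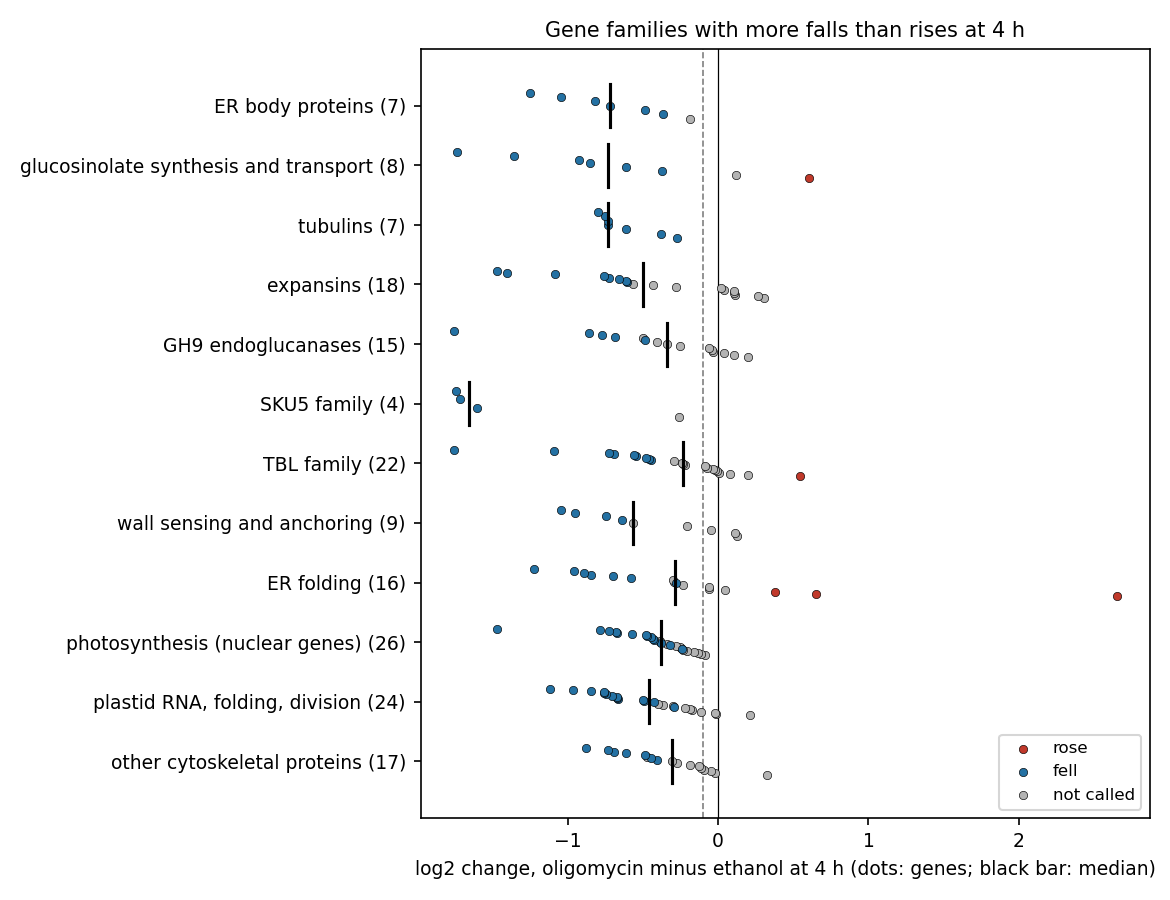
Each point is a gene of a family in which most or all called members fell, placed by its log2 change at 4 h, with the dashed line at the median of all probe sets (−0.10). The tubulins and ER body genes lie almost wholly below that line.

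Lists of cytoskeletal genes held more falls than rises. Among all genes 10.1% were called higher and 22.7% lower, so an excess of falls alone does not set a list apart. All 7 measured tubulins, the building blocks of microtubules, fell, with a median of −0.73. TUA6 was at 1232, 1360.1 and 1183 in ethanol and 697, 828 and 727 with oligomycin, and its groups did not overlap (change −0.73, adjusted p = 0.000317). TUB7, TUB1 and TUB9 were at −0.80, −0.75 and −0.73. The number called was 6 after quantile normalization and 5 with arrays centred on medians or scaled to hybridisation controls. Among the TRM proteins, which recruit complexes to microtubules, 0 of 15 rose and 5 fell (2 and 5 with arrays centred on their medians), and among IQD proteins, which bind calmodulin and often microtubules, 2 of 15 rose and 7 fell. Of 17 other cytoskeletal genes, 0 rose and 7 fell, with ACT11 at −0.69, BRK1, a subunit of the complex that starts actin branches, at −0.73, and SPK1, which acts upstream of it, at −0.88. Scaling to hybridisation controls or centring on medians left 4 of those falls called. The NET proteins, which join actin to membranes, had 2 rises and 3 falls among 10, with NET1B at −1.44 and NET4B at 0.57.

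The cell wall lists described here also held more falls than rises, again beside 10.1% of all genes called higher and 22.7% lower. Expansins, which loosen walls during growth, had 0 rises and 8 falls among 18 genes, with a median of −0.50. EXPA9, EXPA8 and EXPA15 were at −1.47, −1.41 and −1.09. With arrays centred on their medians, 2 expansins rose and 8 fell. Endoglucanases of family GH9 had 0 rises and 5 falls among 15 genes, or 1 and 4 with arrays centred on their medians. GH9C2 was at 232, 217 and 222 in ethanol and 69.2, 47.5 and 50 with oligomycin. SKU5, a glycoprotein of directed root growth, was at 634, 554 and 639 in ethanol and 185, 179.8 and 204 with oligomycin. Every oligomycin array was low for both, with changes of −1.76 and −1.60 (adjusted p = 2.84e-07 and 3.91e-06). Of the 4 genes of the SKU5 family measured, SKU5 included, 3 fell. The relatives sks15 and sks16, at −1.74 and −1.72, had already fallen at 1 h, by changes of −1.40 and −1.28.

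The TBL family, which acetylates wall polysaccharides, had 1 rise and 9 falls among 22, with TBL25 at −1.76 and TBL37 at 0.55. The falls called were 7 after quantile normalization and 6 with arrays centred on medians or scaled to hybridisation controls. Genes that sense or anchor the wall had 0 rises and 4 falls among 9, including the wall integrity kinase THE1 (−1.05) and COB, which guides cellulose deposition (−0.95). Xyloglucan endotransglucosylases, which cut and rejoin wall glucans, parted, with 3 rises and 5 falls among 10. XTH18 was at 265, 220.5 and 167 in ethanol and 1285, 1029 and 1265 with oligomycin. XTH21 was at 19.6, 16.8 and 25.6 in ethanol and 0.5, 0.6 and 0.3 with oligomycin. The first was high and the second near 0 on all oligomycin arrays, with changes of 2.39 and −1.15 (adjusted p = 1.78e-06 and 2.46e-05).

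The lists of nuclear genes for photosynthesis and for plastid RNA, folding and division held falls and 0 rises, in seedlings treated in the dark. Of 26 photosynthesis genes 14 fell, with a median of −0.38, and 7 were called with arrays centred on their medians and 6 when scaled to hybridisation controls. CaS, a thylakoid protein of calcium signalling, was at 269.7, 268 and 260.0 in ethanol and 94.6, 84.6 and 79.3 with oligomycin. All oligomycin arrays were low (change −1.47, SE 0.11, adjusted p = 3.51e-07). ATPC1, a subunit of the chloroplast ATP synthase, was at −0.79 and the Calvin cycle kinase PRK at −0.73. Of 24 genes of plastid RNA, protein folding and division 14 fell, with a median of −0.46. The number called was 13 after quantile normalization, 12 with arrays centred on medians and 10 when scaled to hybridisation controls. FUG1, a plastid translation factor, was at 260.1, 229 and 251 in ethanol and 115, 109.9 and 91 with oligomycin. Its groups did not overlap (change −1.12, adjusted p = 4.48e-06), and the chaperonin Cpn60beta2 was at −0.96.

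Among growth regulators, the gibberellin receptors parted. GID1B was at 71.3, 97.9 and 90.7 in ethanol and 296, 269 and 296 with oligomycin, with all oligomycin arrays high (change 1.57, adjusted p = 2.07e-06). GID1A was lower, going from 201 ± 15.2 to 126 ± 34.7 (mean ± SD, n = 3; change −0.64, adjusted p = 0.0106, and up to 0.0519 without 1 array). GH3.17, which joins auxin to glutamate and so removes it, went from 203 ± 40.1 to 48 ± 3.09 (change −1.76), and the auxin response repressor IAA30 from 9.17 ± 3.14 to 45.4 ± 8.87 (1.28). In the list of GH3 and Aux/IAA genes 5 of 13 rose and 2 fell, with 1 fall called under each of the 3 other scalings. Of 4 genes of the stomatal lineage 0 rose and 2 fell, or 1 with arrays centred on their medians. MUTE, a factor of this lineage, was at 13.5, 18.7 and 12.2 in ethanol and 2.7, 1.8 and 1.7 with oligomycin. It was low on all oligomycin arrays (change −0.76, adjusted p = 0.00479). SPCH, the factor that starts this lineage, was at 27, 24.1 and 3.4 in ethanol and 1.4, 1.5 and 1.7 with oligomycin. The third ethanol array was close to the oligomycin arrays, and the call of SPCH (change −0.88, adjusted p = 0.0191) depended on which array was left out, with an adjusted p of up to 0.0884. The call of SPCH was also lost with arrays centred on their medians (adjusted p = 0.0533 from limma). FMA, the guard cell marker of this list, was not called (change −0.15, adjusted p = 0.513 from limma). Cold and dehydration genes had 6 rises and 2 falls among 17, with 1 fall called when arrays were centred on medians or scaled to hybridisation controls. While COR47 fell, the dehydrin LTI30 went from 96.8 ± 15.9 to 448 ± 30.4 (change 2.05).

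The 4 h difference was then set against the 1 h difference, in which 783 probe sets were called (3.44%), 523 of them higher (2.3%) and 260 lower (1.14%). The 2 differences share no arrays. Of the 2594 rises at 4 h, 478 (18.4%) were also called higher at 1 h, and 9 were called lower. Of the 5751 falls at 4 h, 185 (3.22%) were also called lower at 1 h, and 5 were called higher. The change at 4 h minus that at 1 h was tested for each probe set and called for 4043 (17.8%), 1637 upwards (7.2%) and 2406 downwards (10.6%). It was called for 59.8% of the rises, in the same direction, and for 40.6% of the falls. Of 259 genes named by the rule for this text and called at 4 h, 167 also passed this test.

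**Figure D5:**
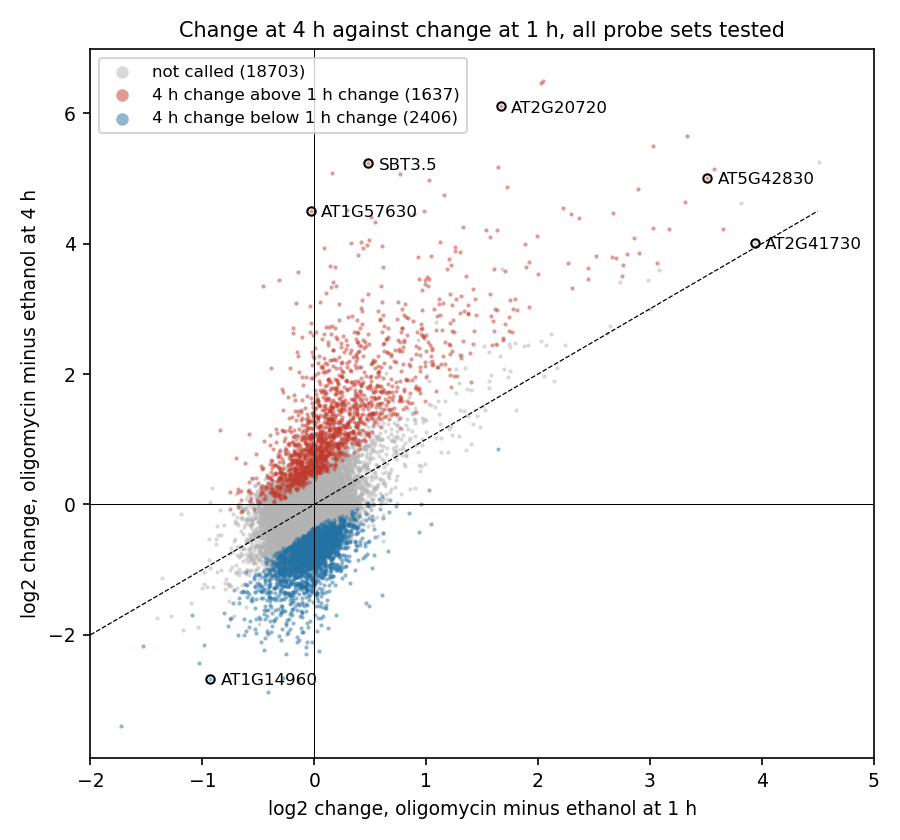
Each point is a probe set, placed by its log2 change at 1 h and at 4 h, oligomycin minus ethanol, and coloured where the 2 changes differed by test. The 1637 probe sets above and the 2406 below the line of equal change lie mostly where the 1 h change is near 0.

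A small set of genes was called in opposite directions at the 2 times. These 10 genes were picked after their values were seen, and 7 of them were higher and 3 lower at 4 h. AT3G13650 was at 239, 207 and 252 in ethanol and 574, 486 and 541 with oligomycin at 4 h, higher on all oligomycin arrays (change 1.15, adjusted p = 4.82e-05). At 1 h it was lower, at −0.84 (adjusted p = 0.0055). AT2G28080 was the reverse, with 0.60 at 1 h and −1.38 at 4 h (adjusted p = 0.0492 and 1.45e-05).

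Reference genes and array controls give the scale on which these differences stand. Of 6 genes often used as references, AT2G28390 was called, at −0.32 (adjusted p = 0.0217 from limma, and 0.0944 at most without 1 array). Its call was lost under the other scalings. The adjusted p from limma was 0.0792 after quantile normalization, 0.258 with arrays centred on their medians and 0.234 with scaling to hybridisation controls. The other 5, PEX4, AT5G46630, AT4G34270, EIF4A-2 and GAPC2, were not called, at −0.07, 0.11, −0.13, −0.16 and −0.18. Within ethanol the arrays correlated at 0.987 to 0.988 across probe sets and within oligomycin at 0.988 to 0.993, and between the treatments at 0.912 to 0.926. The array also carries 19 control probe sets for plant transcripts, of which 11 were higher and 5, all for actin, lower with oligomycin without overlap, beside 46.8% of all tested probe sets whose groups did not overlap. The ratio of signal at the 3′ end to that at the 5′ end, a sign of RNA quality, ranged from 0.963 to 1.06 in ethanol and 0.769 to 0.969 with oligomycin for GAPDH, from 13.8 to 18.8 and 11.6 to 14.5 for actin, and from 1.67 to 2.03 and 1.98 to 2.08 for ubiquitin. The newer probe sets of the array gave other ranges, of 3.13 to 3.28 in ethanol and 3.21 to 3.73 with oligomycin for actin, 0.960 to 1.03 and 0.903 to 0.968 for GAPDH, and 1.08 to 1.1 and 0.976 to 1.21 for ubiquitin. The actin ratio was thus lower with oligomycin by mean in the older pair, whose 5′ probe set is dim, and higher in the newer pair, with overlapping groups in both. What part RNA quality had in the differences was not tested.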

How the data were processed

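RNA of whole seedlings was hybridised to Affymetrix arrays, 1 per sample. The deposited intensity values were used as they stand. The submitters' processing notes name RMA, and its version is not given in the sources used here. RMA usually gives log2 values, but the deposited table is on a linear scale with 166 values of 0 and a highest value of 6149.7. The values were therefore treated as linear intensities, and log2(intensity + 16) was taken. Whether they carry the quantile normalization of RMA is not known, since that step moved the falls from 5751 to 4649 here. No count of molecules stands behind an intensity, so precision is limited by the number of arrays.

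A model with 4 groups was fitted to 22746 probe sets on all 12 arrays with limma 3.58.1 in R 4.3.3 (8 residual degrees of freedom), with Benjamini-Hochberg adjustment over all probe sets and a threshold of 0.05. The 4 h difference, the 1 h difference and the difference between them were contrasts of this fit, which was tested on simulated data. Tables and plots were made with Python 3.11.15, pandas 2.3.3 and matplotlib 3.10.9. The 64 control probe sets stayed out. Probe sets were named from the platform annotation and TAIR10.1 names, and the brightest probe set stood for a gene.

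The members and lists were chosen with earlier results of these data known, and the lists of families were redrawn, from symbol stems or by hand, after values were seen. Genes named are, among those called, the 12 largest rises and 12 largest falls outside the lists, the 8 largest each way in intensity units, the 6 steepest falls above 1000, up to 4 called members of each list, and the reference genes and tissue markers. The first of these used the lists of families made here in place of earlier pathway lists. Replicate numbers were not used as pairs, because deviations of same-numbered arrays correlated at 0.10, −0.005 and 0.04. Alternatives were other pseudocounts, scalings, filters, priors, array weights, a fit on the 6 arrays of 4 h, a replicate block and leaving out each array. No sequences were used.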

Additional observations from a re-analysis of the deposited data

Results flagged for a closer look

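The change at 4 h differed from that at 1 h by the test of the difference for 23 of the 24 genes with the largest rises and falls outside the lists. These genes were chosen for large changes at 4 h, which favours such a difference, and over all called probe sets it was called in the same direction for 59.8% of the rises and 40.6% of the falls. For the rises, the change at 4 h exceeded that at 1 h by 4.53 for AT1G57630, 4.44 for AT2G20720, 4.30 for AT1G26380, 4.23 for AT1G26390, 3.95 for AT4G39670, 3.51 for AT2G04070, 3.15 for AT1G74870, 2.46 for AT4G28460, 2.33 for AT3G54520, 1.95 for AT2G23270, 1.5 for AT5G42830 and 1.33 for AT5G43450 (log2 scale). For the falls, the change at 4 h minus that at 1 h was −2.05 for AT3G54400, −1.95 for AT1G29660, −1.86 for AT5G20700, −1.74 for AT1G14960, −1.72 for DRT100, −1.63 for AT1G14120, −1.63 for AT5G46230, −1.61 for AT2G41800, −1.45 for AT1G20070, −1.38 for AT3G20370 and −1.17 for AT4G22610. For AT2G41810 the difference was −1.51, with an adjusted p of 0.0889 from limma.

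The 10 genes called in opposite directions at the times, picked after their values were seen, had differences (4 h minus 1 h) of 1.99 for AT3G13650, 1.66 for AT1G64290, 1.41 for AT1G17310, 1.26 for AT3G04010, 1.07 for SGP1, 0.74 for AT4G11800, 0.69 for CXE20, −1.04 for AT2G28200, −1.49 for AT5G41140 and −1.99 for AT2G28080. In AT2G28080, AT5G41140 and AT2G28200 the gene was higher at 1 h and lower at 4 h.

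Control probe sets for plant transcripts, which stayed out of the fit, were higher with oligomycin in 11 of 19 cases and lower in 5 without overlap. The 5 lower ones were all for actin, such as a 5′ probe set with a mean of 647 in ethanol and 442 with oligomycin. The 25S ribosomal RNA probe set was at 1535, 1728 and 1769 in ethanol and 2493, 2417 and 2409 with oligomycin, a mean of 2440.0. The means with oligomycin were 1697, 2022 and 2835 for the older GAPDH probe sets and 3749 and 4013 for the newer ones, against 1068, 1056, 1777, 2326 and 2351 in ethanol. For ubiquitin they were 2507, 1237, 1332, 3220 and 3025, against 2139, 1127, 976, 2664 and 2442. The named gene GAPC2 was not called at 4 h (−0.18, adjusted p = 0.221 from limma). These differences of control probe sets were not tested.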

How the results depend on the processing

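Of the 259 named genes called at 4 h, 210 kept their call and none changed direction under the 16 alternatives run, while 49 lost it under at least 1, most often GLR3.5, MAC3A and GLR3.3. The filter on dim probe sets left 236 of all 266 named genes to test. Calls lost numbered 38 when arrays were scaled to hybridisation controls, 30 when centred on their medians and 20 after quantile normalization. The count of falls dropped from 5751 to 3423 with arrays centred on their medians and to 3279 with scaling to hybridisation controls, and under the latter the probe sets whose change differed between 4 h and 1 h went from 4043 to 2168. The cause of these shifts was not tested. Leaving out 1 array gave 7060 to 7715 calls at 4 h, 2324 to 2478 rises, 4717 to 5307 falls, 3227 to 3792 differences between the times and 315 to 348 called genes in the lists. The replicate block gave 8278 calls. The labels do not say whether same-numbered arrays share a culture or day. Dim transcripts limit what can be read, since a change near the bottom of the scale is compressed by the pseudocount, and with a pseudocount of 1 the calls at 4 h numbered 7777.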

Other observations

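Strong changes of neighbouring genes on the chromosome were counted from the gene order of TAIR10.1. Among 5813 adjacent pairs with both genes measured, 51 had both genes past a log2 change of 1 and called (0.877%). Of the 12223 genes placed, 6.65% were past it and called. The latter is a share of single genes, which cannot be set directly against a share of pairs. Whether strong changes cluster along the chromosome was not tested. In 36 pairs both rose, in 8 both fell and in 7 they went opposite ways. BZIP60 lay between AT1G42980 and AT1G43000, and the 3 changes were 2.62, 2.65 and 3.07. BIK1 and AT2G39650 both rose, as did UGT73B4 and UGT73B5, and BGLU45 and BGLU46. AT5G47060 fell by 1.22 between AT5G47050 and AT5G47070, which rose by 1.36 and 1.70. These pairs were picked after their values were seen. Neighbours that are copies of each other may share probes, so their changes are not independent.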
